A study of Mus musculus with 15 samples.

Results

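The 6 genes described here, Apela, Rnase1, Fetub, Frmpd2, Fads2b and 4930426D05Rik, were chosen from the largest rises of pituitary RNA in Pit1dw/dw mice, out of 18193 genes measured. The question is whether Prop1df/df pituitaries show the same rise. Groups of 5 RNA pools were compared, all from mice at postnatal day 1 (P1) and fed a high fat chow. Prop1df/df mice are on the DF/B background. Pit1dw/dw mice are homozygous for the dw (Snell dwarf) allele of Pit1 on the DW/J background. Pit1+/+ mice are wild type at Pit1, also on DW/J. Strain and genotype therefore cannot be told apart in any comparison with Prop1df/df, and neither the number nor the sex of the pituitaries in a pool was stated.

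Pit1 (Pou1f1) is the POU-homeodomain factor that the growth hormone, prolactin and thyrotropin cells of the anterior pituitary need. Pit1 mutants are known to lack these cell types and to keep their gonadotrophs, the cells that make luteinising and follicle-stimulating hormone.

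The 6 genes have unrelated known roles. Apela (also called Elabela or Toddler) encodes a small secreted peptide that signals through the apelin receptor, Aplnr. Rnase1 encodes the secreted pancreatic-type ribonuclease. Fetub encodes fetuin-B, a plasma protein of the cystatin superfamily, made mainly in liver, that inhibits astacin-like proteases. Frmpd2 encodes a scaffold protein with FERM and PDZ domains, and Fads2b belongs to the fatty acid desaturase family. 4930426D05Rik is a RIKEN gene to which no role is given here. Apart from Apela, which has 2 probe sets, each gene has 1, giving 7 in all.

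Promoter sequence is shown to let the genes that moved alike be compared at their starts. The RefSeq table (GRCm38.p6) matched 4 of the 6 genes with 5 start sites, and the 250 bases before each start follow, 5′ to 3′ on the gene's strand. Capitals mark matches to the E box CANNTG, bound by bHLH factors, and to the TATA box TATAAA.
Apela, chr8:65037337-65037586, - strand: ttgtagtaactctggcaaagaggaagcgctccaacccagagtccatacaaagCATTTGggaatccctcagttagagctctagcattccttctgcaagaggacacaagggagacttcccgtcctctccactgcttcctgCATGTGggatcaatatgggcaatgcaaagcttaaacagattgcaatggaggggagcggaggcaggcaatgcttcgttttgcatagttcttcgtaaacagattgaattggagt
Fetub, first start, chr16:22918132-22918381, + strand: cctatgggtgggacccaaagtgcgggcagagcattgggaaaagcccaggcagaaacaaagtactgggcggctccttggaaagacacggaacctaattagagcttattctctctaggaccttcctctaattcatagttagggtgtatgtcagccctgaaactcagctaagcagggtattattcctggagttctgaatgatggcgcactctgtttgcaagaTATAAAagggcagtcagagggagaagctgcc
Fetub, other start, chr16:22919972-22920221, + strand: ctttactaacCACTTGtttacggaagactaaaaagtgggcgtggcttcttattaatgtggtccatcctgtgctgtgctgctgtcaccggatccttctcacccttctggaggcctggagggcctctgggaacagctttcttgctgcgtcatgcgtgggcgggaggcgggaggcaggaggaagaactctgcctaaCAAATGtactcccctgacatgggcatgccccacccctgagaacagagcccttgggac
Fads2b, chr2:85518936-85519185, - strand: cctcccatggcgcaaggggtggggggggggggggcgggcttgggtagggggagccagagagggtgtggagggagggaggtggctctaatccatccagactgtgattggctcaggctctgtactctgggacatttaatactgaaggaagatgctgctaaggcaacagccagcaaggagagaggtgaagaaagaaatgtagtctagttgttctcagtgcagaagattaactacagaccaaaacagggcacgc
Rnase1, chr14:51146768-51147017, - strand: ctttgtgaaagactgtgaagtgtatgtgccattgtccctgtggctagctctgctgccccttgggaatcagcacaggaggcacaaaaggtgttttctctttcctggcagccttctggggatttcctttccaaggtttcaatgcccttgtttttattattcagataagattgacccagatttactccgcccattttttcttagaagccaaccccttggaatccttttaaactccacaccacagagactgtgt

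Of the motifs searched on both strands, the Pit1 core TATNCAT, the paired homeodomain palindrome and the nuclear receptor motif TGACCT had no match in these 5 windows. Across 32851 promoters of the same length, 7.92% hold the Pit1 core, 0.463% the palindrome and 14.0% the receptor motif. E boxes lie 198 and 112 bases before the start of Apela and 240 and 57 bases before the other start of Fetub, and 66.2% of all promoters hold 1 or more. Fetub has a TATA box 31 bases before its first start, a motif added after the sequences were seen, which 12.4% of promoters hold. No matches overlap, and Fads2b and Rnase1 have no match to any of the 5 motifs.

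Several pools stood apart from their group and bear on the comparisons. Growth hormone (Gh), the product of somatotrophs, was 13.58, 14.07 and 14.03 log2 units in Prop1df/df pools 1 to 3, and 8.99 and 10.24 in pools 4 and 5. It was 7.15 to 10.31 in Pit1dw/dw and 14.15 to 14.28 in Pit1+/+. The first 3 Prop1df/df pools thus had Gh signals near those of Pit1+/+, while the other 2 were in the Pit1dw/dw range. Tshb, the thyrotropin beta subunit, split the same way, at 9.68 to 9.89 in those 3 pools, 6.28 and 7.17 in the other 2, 6.2 to 7.01 in Pit1dw/dw and 11.67 to 12.29 in Pit1+/+. Hesx1, an early pituitary homeobox repressor, was 5.15, 5.67 and 4.4 in Prop1df/df pools 1 to 3, and 5.9 and 5.93 in pools 4 and 5. It was 2.56 to 3.15 in Pit1dw/dw and 2.79 to 3.05 in Pit1+/+. By that gene all 5 Prop1df/df pools lay above both other groups, with pools 1 to 3 below pools 4 and 5. Results are therefore given with and without Prop1df/df pools 1 to 3. The labels of Pit1+/+ pool 1 conflict: 1 entry names the Prop1df/df genotype while the others name Pit1+/+ and DW/J. Its Hesx1 (2.81) lay with the other wild-type pools. Array medians ran from 4.31 to 4.43, with an overall median of 4.37. The annotation given names no probe set for Pou1f1 alone, so it was not analysed here.

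**Figure D1:**
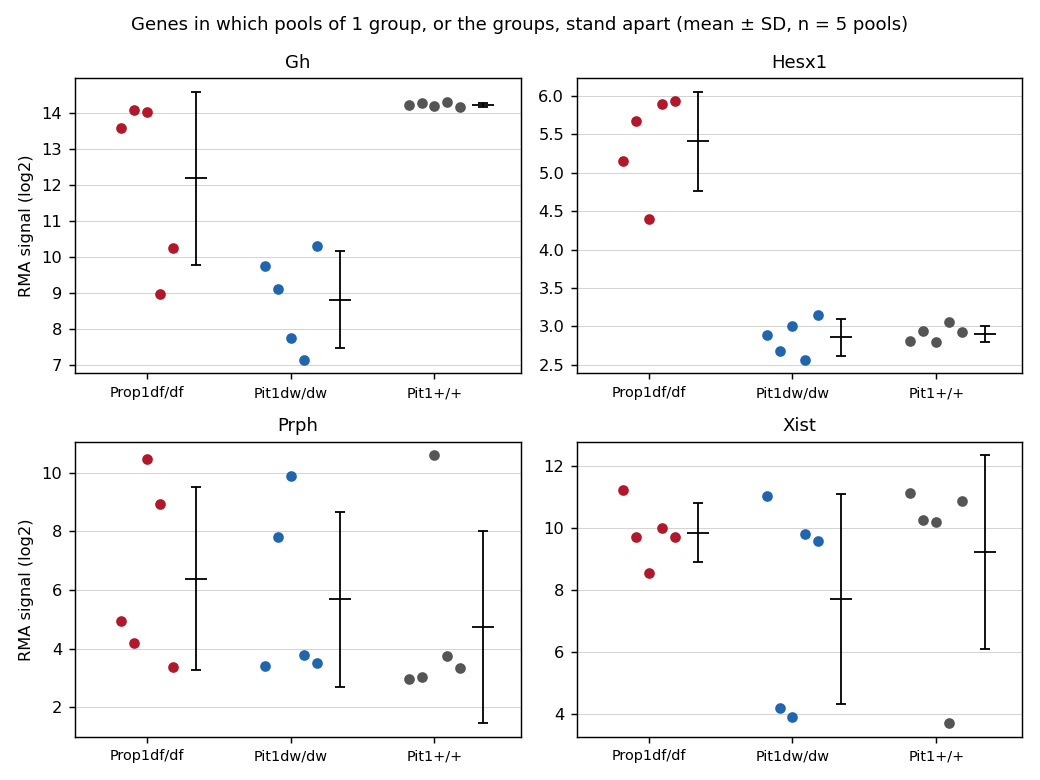
RMA signal (log2, vertical axis) of Gh, Hesx1, Prph (a sensory neuron gene) and Xist (the RNA of X inactivation) in each pool of the 3 groups, with the mean and SD of 5 pools beside the points. Gh splits the Prop1df/df pools into 3 at 13.58 or more and 2 at 8.99 and 10.24, Hesx1 is 4.4 or more in the Prop1df/df pools alone, Prph exceeds 7 in 5 pools spread over the groups, and Xist is 4.2 or less in 3 pools.

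The rise that defined the genes was as follows. Among the 28 genes past the threshold in Pit1dw/dw against Pit1+/+ whose pools did not overlap and were higher, the 6 hold ranks 2, 3, 5, 6, 8 and 9 by size. 4930426D05Rik at 1.17 stands just inside and Scgn, a calcium-binding protein at 1.16, just outside. Ranks 1, 4 and 7 belong to the gonadotroph genes Nr0b1, Gnrhr and Nr5a1, which are not members. Of all genes, 0.165% passed the threshold as higher in Pit1dw/dw, and for 0.863% every Pit1dw/dw pool lay above every Pit1+/+ pool. All 6 genes meet both criteria because they were chosen by them. As a description, the log2 difference of Pit1dw/dw minus Pit1+/+ was 1.61 for Rnase1, 1.56 for Apela, 1.48 for Fetub, 1.41 for Frmpd2 and 1.35 for Fads2b. The RNA was pooled from whole pituitaries, so more cells of a type and more RNA per cell cannot be told apart.

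In Prop1df/df pituitaries 1 of the 6 genes, 4930426D05Rik, was higher than in Pit1+/+ past the threshold, and its rise exceeded that of Pit1dw/dw. The other 5 did not pass against Pit1+/+, at log2 differences of -0.78 to 0.78. Across all genes 3.25% passed as higher and 7.31% as lower in this comparison. Against Pit1dw/dw, 4 of the 6 (Apela, Fetub, Fads2b and Frmpd2) were lower and 4930426D05Rik was higher, where 4.05% of all genes passed as lower and 2.21% as higher. Without Prop1df/df pools 1 to 3, 2 of the 6 passed against Pit1+/+ (4930426D05Rik higher, Apela lower) and 4 against Pit1dw/dw (Frmpd2 no longer), where 890 and 503 of all 18193 genes passed in either direction. The median difference of the 6 was 0.38 against Pit1+/+ and -1.01 against Pit1dw/dw, beside -0.04 and -0.02 over all genes. Both comparisons share a group with the contrast that chose the genes, so their differences are not independent of that choice.

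**Figure D2:**
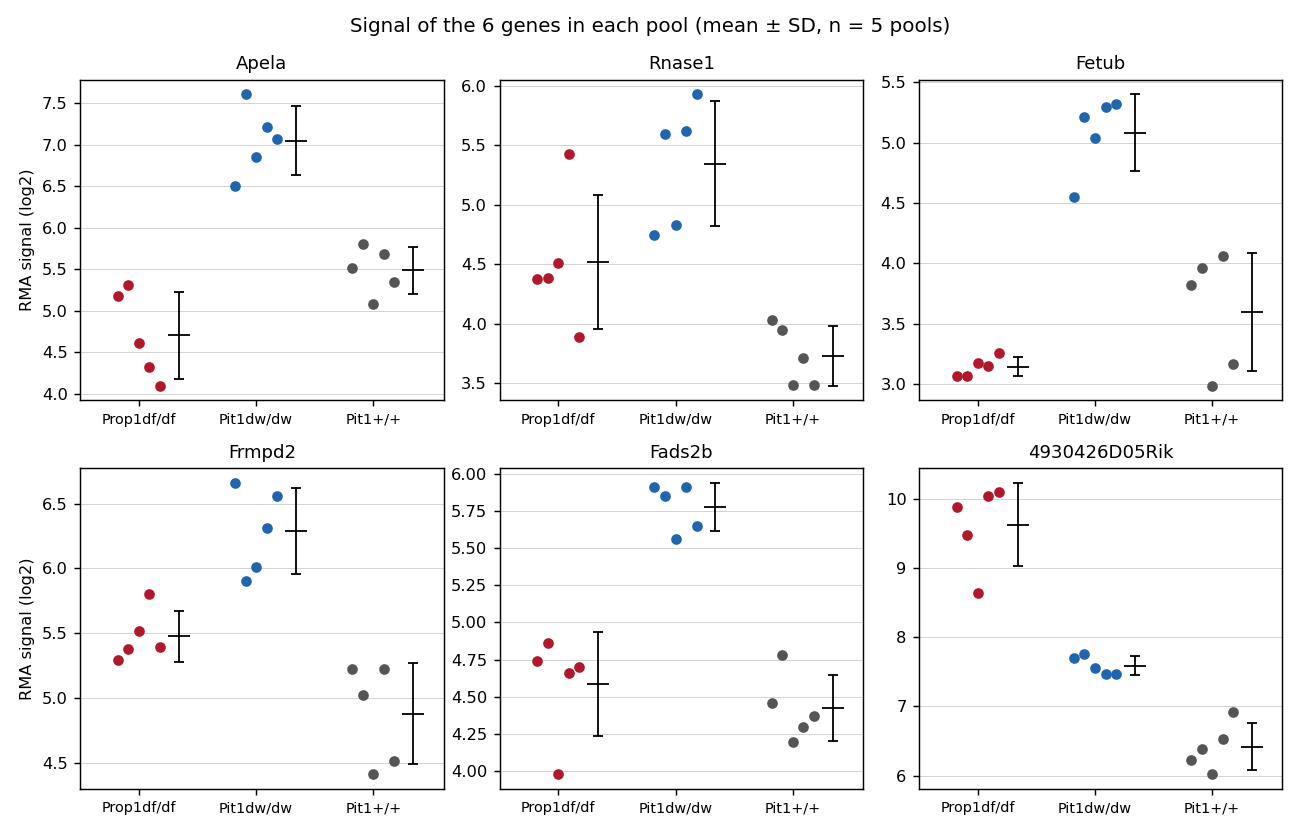
RMA signal (log2, vertical axis) of the 6 genes in each pool of the 3 groups, with the mean and SD of 5 pools beside the points (for Apela, the brighter probe set). The Prop1df/df pools lie above both other groups for 4930426D05Rik (8.64 to 10.09), below the Pit1dw/dw pools for Apela, Fetub, Fads2b and Frmpd2, and across both other groups for Rnase1 (3.89 to 5.43).

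4930426D05Rik was the only member whose rise in Pit1dw/dw came with a rise past the threshold in Prop1df/df. Its signal was 9.88, 9.48, 8.64, 10.04 and 10.09 in Prop1df/df pools 1 to 5, 7.7, 7.76, 7.55, 7.47 and 7.47 in Pit1dw/dw, and 6.22, 6.39, 6.02, 6.53 and 6.92 in Pit1+/+. The 3 groups did not overlap, and the order was Prop1df/df, Pit1dw/dw, Pit1+/+. Prop1df/df pools were higher than every Pit1+/+ pool for 2.56% of all genes and higher than every Pit1dw/dw pool for 3.0% of all genes. The mean was 9.62 ± 0.6 in Prop1df/df and 6.42 ± 0.34 in Pit1+/+ (SD, n = 5 each), a log2 difference of 3.21 (SE 0.24, 9.25-fold, limma adjusted p = 5.29e-07), the 9th largest rise among 18193 genes. Against Pit1dw/dw, at 7.59 ± 0.13, the difference was 2.04 (SE 0.24, 4.1-fold, limma adjusted p = 6.58e-05). Without Prop1df/df pools 1 to 3 the differences were 3.65 (adjusted p = 4.06e-07) and 2.48 (adjusted p = 1.91e-05). Pool 3, the lowest Prop1df/df pool for this gene, was also the lowest of its group for Hesx1 (4.4).

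Apela had its highest mean in Pit1dw/dw and its lowest in Prop1df/df. The brighter probe set read 5.18, 5.31, 4.61, 4.32 and 4.1 in Prop1df/df pools 1 to 5, 6.5, 7.61, 6.86, 7.22 and 7.07 in Pit1dw/dw, and 5.52, 5.8, 5.08, 5.69 and 5.35 in Pit1+/+. Every Prop1df/df pool lay below every Pit1dw/dw pool, which holds for 5.51% of all genes, and 2 of them (pools 1 and 2) lay within the Pit1+/+ range. The mean of 4.71 ± 0.53 in Prop1df/df against 7.05 ± 0.41 in Pit1dw/dw gave a log2 difference of -2.35 (SE 0.24, 5.08-fold lower, limma adjusted p = 1.96e-05). Against Pit1+/+, at 5.49 ± 0.29, the difference of -0.78 missed the threshold (95% confidence interval -1.3 to -0.26, limma adjusted p = 0.0525).

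That second call changed with single pools. The adjusted p of Apela against Pit1+/+ was 0.0407 without Prop1df/df pool 1, 0.0263 without Prop1df/df pool 2, 0.0403 without Pit1+/+ pool 3 and 0.0449 without Pit1+/+ pool 5. It was 0.0443 and 0.0457 without Pit1dw/dw pools 1 and 2, which enter only the estimate of the spread. Without Prop1df/df pools 1 to 3 the difference was -1.28 (adjusted p = 0.0146), and against Pit1dw/dw it was then -2.84 (adjusted p = 6.22e-05). Apela's other probe set was dim in every group, at 2.68 to 3.46 in Prop1df/df, 2.8 to 3.32 in Pit1dw/dw and 2.7 to 3.31 in Pit1+/+. Its differences were 0.05 against Pit1+/+ and 0.07 against Pit1dw/dw (SE 0.16 each), and -0.01 for Pit1dw/dw against Pit1+/+, so the change described for Apela is that of the brighter probe set. With the mean of both probe sets, the difference from Pit1+/+ was -0.36 (adjusted p = 0.155).

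Fetub was dim in every Prop1df/df pool. It read 3.07, 3.07, 3.18, 3.15 and 3.26 in Prop1df/df pools 1 to 5, 4.55, 5.21, 5.04, 5.29 and 5.32 in Pit1dw/dw, and 3.82, 3.96, 2.99, 4.06 and 3.17 in Pit1+/+. The Prop1df/df pools lie around the lower quartile of their arrays (3.05 to 3.25 over the 15 arrays), and Pit1+/+ pools 3 and 5 were as dim. Prop1df/df averaged 3.15 ± 0.08 and Pit1dw/dw 5.08 ± 0.32, a log2 difference of -1.94 (SE 0.2, 3.82-fold lower, limma adjusted p = 1.89e-05), which can be understated at signals this dim. Against Pit1+/+ (3.6 ± 0.49) the difference was -0.45 (interval -0.88 to -0.03, limma adjusted p = 0.174). With array weights it was -0.66 (adjusted p = 0.0127). Without Prop1df/df pools 1 to 3 the difference from Pit1dw/dw was -1.87 (adjusted p = 0.00379) and that from Pit1+/+ -0.39 (adjusted p = 0.549).

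Fads2b was lower in Prop1df/df than in Pit1dw/dw and overlapped with Pit1+/+. It read 4.74, 4.86, 3.98, 4.66 and 4.7 in Prop1df/df pools 1 to 5, 5.91, 5.85, 5.56, 5.91 and 5.65 in Pit1dw/dw, and 4.46, 4.78, 4.2, 4.3 and 4.37 in Pit1+/+. The Prop1df/df and Pit1+/+ pools overlap, and both lie below every Pit1dw/dw pool. The difference from Pit1dw/dw was -1.19 (SE 0.16, 2.27-fold lower, limma adjusted p = 0.00024), and -1.09 (adjusted p = 0.00295) without Prop1df/df pools 1 to 3. The difference from Pit1+/+ was 0.17, with an interval of -0.17 to 0.51 (limma adjusted p = 0.564), and 0.26 (adjusted p = 0.462) without those 3 pools. That small difference moved with single pools, to 0.32 (adjusted p = 0.11) without Prop1df/df pool 3 and 0.1 (adjusted p = 0.779) without Prop1df/df pool 2, and to 0.26 (adjusted p = 0.39) and 0.11 (adjusted p = 0.754) without Pit1+/+ pools 2 and 3. It was 0.27 (adjusted p = 0.169) with array weights and 0.29 (adjusted p = 0.251) without the 5 pools with Prph above 7. With the levels of ganglion and bone genes as covariates, the difference from Pit1+/+ was 0.45 (adjusted p = 0.0475).

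Frmpd2 lay between the other 2 groups in Prop1df/df. It read 5.29, 5.38, 5.52, 5.8 and 5.39 in Prop1df/df pools 1 to 5, 6.66, 5.9, 6.01, 6.31 and 6.56 in Pit1dw/dw, and 5.22, 5.02, 4.41, 5.22 and 4.51 in Pit1+/+. The groups did not overlap, but the gaps were narrow, 5.8 against 5.9 on the upper side and 5.29 against 5.22 on the lower. The difference from Pit1dw/dw was -0.81 (SE 0.19, 1.75-fold lower, limma adjusted p = 0.0161), and -0.69 with the call lost (adjusted p = 0.261) without Prop1df/df pools 1 to 3. The difference from Pit1+/+ was 0.6 (interval 0.2 to 1.01, limma adjusted p = 0.055), and it passed without Pit1+/+ pool 1 (0.69, adjusted p = 0.0434) or pool 4 (0.69, adjusted p = 0.0448). It was 0.36 (adjusted p = 0.245) without the 5 pools with Prph above 7, 0.4 (adjusted p = 0.117) with array weights and 0.72 (adjusted p = 0.181) without Prop1df/df pools 1 to 3. In Pit1dw/dw the 2 lowest Frmpd2 values were those of pools 2 and 3, in which Prph was 7.79 and 9.89, against 3.78 or less in the other 3, and Xist 4.2 and 3.89, against 9.6 or more. With the Xist level as a covariate the difference from Pit1dw/dw was -0.85 (adjusted p = 0.0285).

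Rnase1 was the member whose Prop1df/df pools spanned both other groups. It read 4.38, 4.39, 4.51, 5.43 and 3.89 in Prop1df/df pools 1 to 5, 4.75, 5.6, 4.83, 5.62 and 5.93 in Pit1dw/dw, and 4.03, 3.95, 3.49, 3.71 and 3.49 in Pit1+/+. Pool 4 lay within the Pit1dw/dw range and pool 5 within the Pit1+/+ range. The difference was 0.78 from Pit1+/+ (interval 0.21 to 1.36, limma adjusted p = 0.0781) and -0.83 from Pit1dw/dw (interval -1.4 to -0.26, limma adjusted p = 0.0846). The first passed without Prop1df/df pool 5 (0.94, adjusted p = 0.0425). The second passed without Prop1df/df pool 4 (-1.06, adjusted p = 0.014) or Pit1dw/dw pool 1 (-0.98, adjusted p = 0.0493), with array weights (-0.86, adjusted p = 0.0319), and without the 5 pools with Prph above 7 (-1.22, adjusted p = 0.0389), where the first was 0.42 (adjusted p = 0.349). Without Prop1df/df pools 1 to 3 neither passed, at 0.92 (adjusted p = 0.246) and -0.69 (adjusted p = 0.483).

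**Figure D3:**
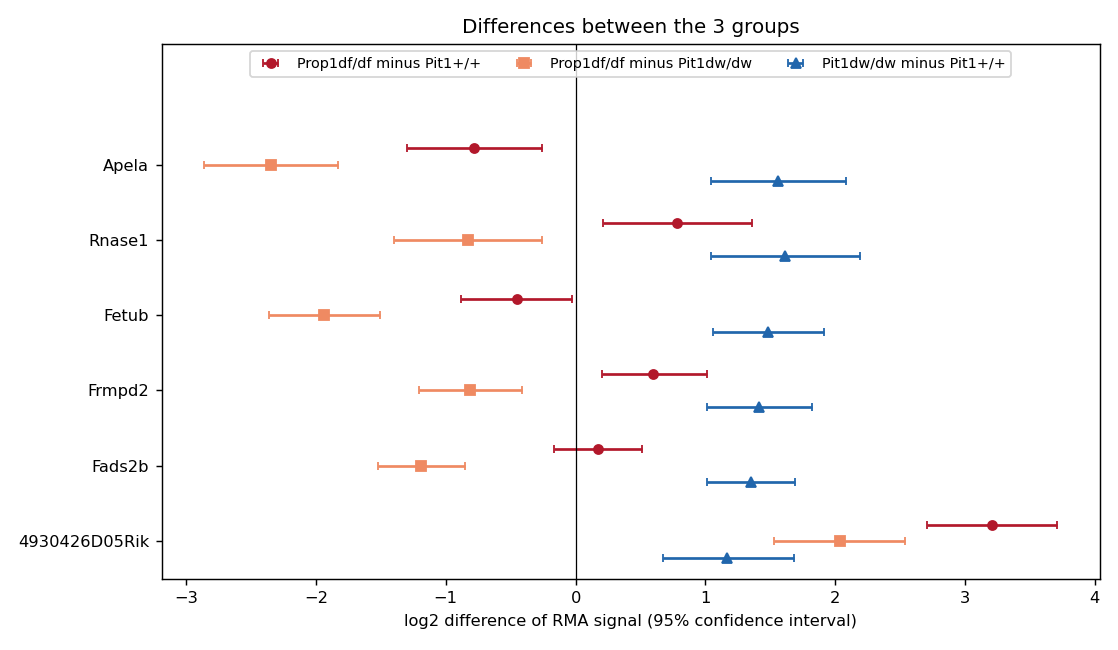
Log2 difference of RMA signal (horizontal axis) with its 95% confidence interval for the 6 genes in Prop1df/df minus Pit1+/+ (circles), Prop1df/df minus Pit1dw/dw (squares) and Pit1dw/dw minus Pit1+/+ (triangles, the contrast that chose the genes). For 4930426D05Rik all 3 lie above 0 (3.21, 2.04 and 1.17), while for the other 5 genes the squares lie below 0, at -2.35 to -0.81.

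The genes nearest to a member in pattern were found over the 15 arrays by the root mean square (RMS) difference of centred log2 signals, which is 0 for the same pattern. These arrays share pools, strain and processing, so nearness is a description. The members were also chosen for a large rise in Pit1dw/dw, so other genes ranked high for that rise lie near them partly for that reason. Nr0b1, Gnrhr, Nr5a1, Scgn and Ccbe1 are such genes. For Fads2b, whose own RMS deviation was 0.64, the nearest were Gnrhr (0.28), the gonadotropin releasing hormone receptor, Nr0b1 (0.33), a nuclear receptor of gonadotrophs, and Scgn (0.35). Gnrhr averaged 7.12 in Prop1df/df, 8.27 in Pit1dw/dw and 6.78 in Pit1+/+, and Nr0b1 4, 5.72 and 3.91 in the same 3 groups. Scgn was also nearest to Frmpd2 (0.34 of 0.64), followed by Ccbe1 (0.38), a secreted factor of lymphatic growth, and Id2 (0.38), an inhibitor of bHLH factors. For Rnase1 (0.78) the nearest were Scgn (0.46), Nr5a1 (0.47), the nuclear receptor of gonadotrophs and steroid-making cells, and Ddit4l (0.49), so its pattern was matched less closely.

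Apela and Fetub shared a neighbour. For Apela (1.05) the nearest were Gpha2 (0.48), the alpha subunit of the glycoprotein hormone thyrostimulin, Rgs2 (0.54), a regulator of G protein signalling, and Inmt (0.54), an amine methyltransferase. For Fetub (0.88) they were the myosin light chain Myl10 (0.42), Gpha2 (0.43) and the metallothionein Mt2 (0.43). Gpha2 was 2.37 to 3.34 in Prop1df/df, 3.82 to 5.19 in Pit1dw/dw and 3.34 to 4 in Pit1+/+, so it too was lowest in Prop1df/df and highest in Pit1dw/dw. 4930426D05Rik (1.37) had other neighbours: the glycosyltransferase Gcnt1 (0.47), Hesx1 (0.57) and Bmt2 (0.57). Hesx1 was 2.51 higher in Prop1df/df than in Pit1+/+ but -0.05 in Pit1dw/dw against Pit1+/+, so it lacks the smaller Pit1dw/dw rise of 4930426D05Rik.

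**Figure D4:**
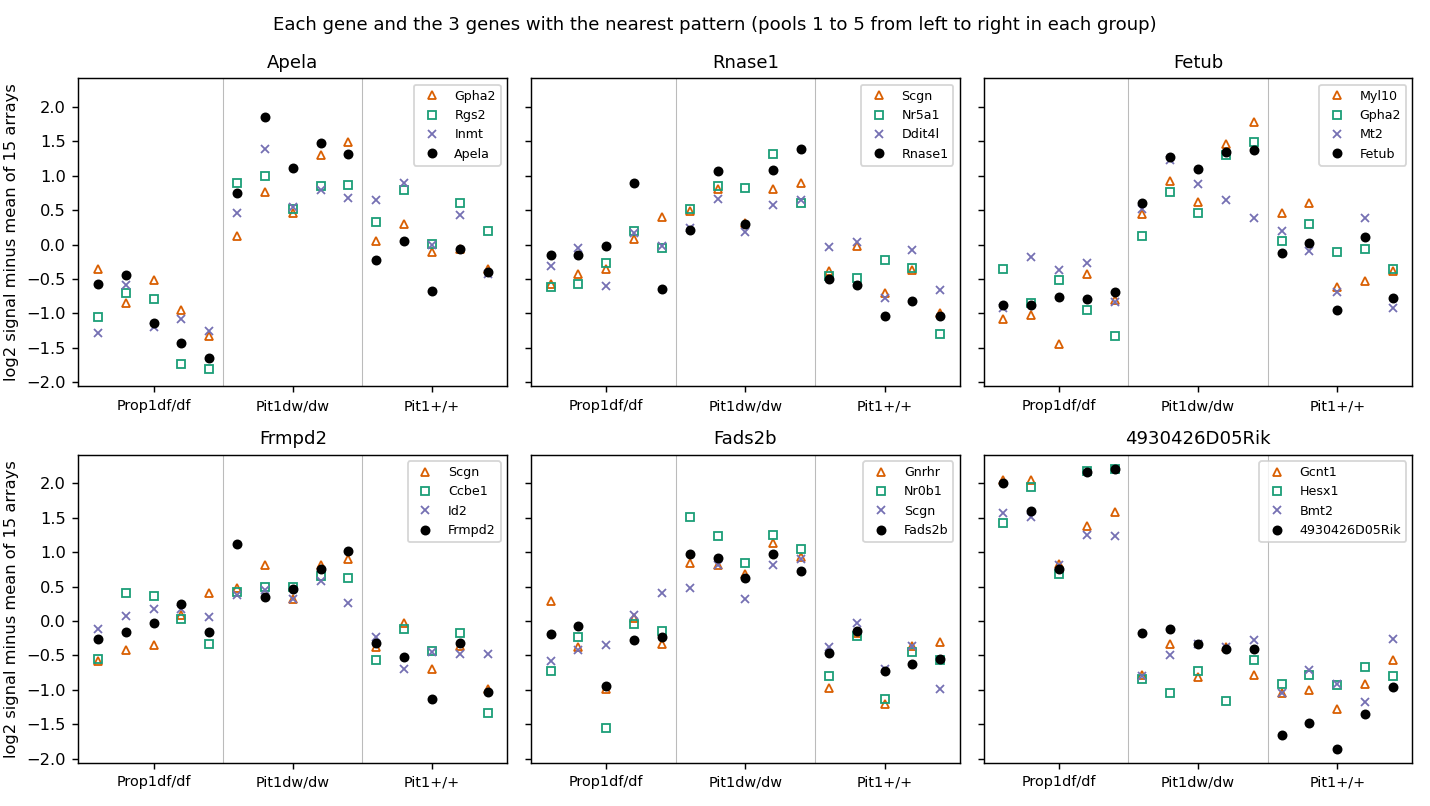
Log2 RMA signal minus the mean of the 15 arrays (vertical axis) for each of the 6 genes (black circles) and its 3 nearest genes (coloured marks), with pools 1 to 5 of each group side by side along the horizontal axis. The smallest RMS difference is that of Fads2b and Gnrhr (0.28, where Fads2b's own RMS deviation is 0.64), 4930426D05Rik and Gcnt1 differ by 0.47 of 1.37, and 4930426D05Rik and its neighbours are high in Prop1df/df.

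Relatives of the 6 genes in their own families were measured too. Their counts are to be read beside the shares of all genes. In Prop1df/df, 3.25% passed as higher and 7.31% as lower against Pit1+/+, and 2.21% and 4.05% against Pit1dw/dw. In Pit1dw/dw against Pit1+/+, 140 of 18193 genes passed in either direction. At such shares, few or no genes past the threshold in lists of this size say little about the families. In the apelin system none of the other 4 measured genes passed in any of the 3 contrasts, and the receptor Aplnr was 10.17 ± 0.34 in Prop1df/df, 10.56 ± 0.26 in Pit1dw/dw and 10.65 ± 0.31 in Pit1+/+. The other apelin receptor ligand, Apln, differed by -0.16 from Pit1+/+ (SE 0.15, limma adjusted p = 0.555) and by -0.2 from Pit1dw/dw (limma adjusted p = 0.478). None of 8 other genes of the ribonuclease A family and its inhibitor passed in any contrast, with Rnase4 at 0.29 and the ribonuclease inhibitor Rnh1 at -0.22 against Pit1+/+. In the list of fetuins, kininogens, cystatins and astacin proteases, 1 of the other 14 passed, the cathepsin inhibitor Cstb, which was higher in Prop1df/df than in Pit1+/+ (0.57, limma adjusted p = 0.0175). The other fetuin, Ahsg, was dim in all 3 groups, at means of 2.83, 2.68 and 2.87 in Prop1df/df, Pit1dw/dw and Pit1+/+.

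None of 8 other genes of the FERM and PDZ list and none of 16 other desaturases and elongases passed in any contrast. At the shares of all genes given above, that too says little about the families. The fatty acid desaturase family genes Fads1, Fads2 and Fads3 differed by -0.35, -0.15 and 0.42 in Prop1df/df against Pit1+/+ and by -0.22, -0.27 and -0.14 in Pit1dw/dw against Pit1+/+. Frmpd1, the related scaffold, differed by -0.64 (SE 0.28, limma adjusted p = 0.175) and 0.15 in the same 2 contrasts.

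Markers of several pituitary cell types also differed between the groups, not all in the members' direction, and their part in the members' values was not tested. The 8 measured genes of the Pit1 lineage had a mean level of 7.5 to 8.13 in Prop1df/df pools 1 to 3, 5.98 and 6.26 in pools 4 and 5, 5.72 to 6.41 in Pit1dw/dw and 9.25 to 9.91 in Pit1+/+. For the counts that follow, 7.31% of all genes passed as lower and 3.25% as higher in Prop1df/df against Pit1+/+. Against Pit1dw/dw these shares were 4.05% and 2.21%. In Pit1dw/dw against Pit1+/+, 0.165% passed as higher. Of 8 gonadotroph genes, 7 were lower in Prop1df/df than in Pit1dw/dw and 4 lower than in Pit1+/+, and 3 (Gnrhr, Nr5a1 and Nr0b1) were higher in Pit1dw/dw than in Pit1+/+. The mean level of that list was 6.03 to 6.81 in Prop1df/df, 7.35 to 8.49 in Pit1dw/dw and 7.27 to 8.13 in Pit1+/+. Lhb, the luteinising hormone beta subunit, averaged 5.75 in Prop1df/df against 8.99 in Pit1dw/dw and 9.07 in Pit1+/+, so unlike the 6 genes its mean was not raised in Pit1dw/dw. That mean covers a split, at 10.25, 7.19, 7.17, 9.98 and 10.36 in Pit1dw/dw pools 1 to 5, against 7.71 to 10.19 in Pit1+/+. Pools 2 and 3, the lowest for Lhb, were also the Pit1dw/dw pools low in Xist. Of 6 corticotroph and melanotroph genes, 5 were lower in Prop1df/df than in Pit1dw/dw and 3 lower than in Pit1+/+, and the list's level was 6.62 to 6.93, 7.67 to 7.89 and 7.32 to 7.88 in the 3 groups. Of 7 progenitor genes, 3 (Hesx1, Cdh1 and Prrx1) were higher in Prop1df/df than in Pit1+/+, 1 (Gfra2, at -0.58, limma adjusted p = 0.0351) was lower and 3 did not pass, among them Sox2 (0.31, limma adjusted p = 0.22) and Sox9 (0.1, limma adjusted p = 0.797). The mean level of that list was 7.13 to 7.56 in Prop1df/df, 6.83 to 6.93 in Pit1dw/dw and 6.74 to 6.93 in Pit1+/+.

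Markers of liver and pancreas, where Fetub and Rnase1 are best known, were measured too. The 5 measured genes of pancreatic acinar cells had a mean level of 2.83 to 3.12 in Prop1df/df, 2.76 to 2.97 in Pit1dw/dw and 2.84 to 3.02 in Pit1+/+, and each averaged below the overall median of 4.37. The 6 measured hepatocyte genes had a mean level of 4.02 to 5 in Prop1df/df, 4.02 to 4.83 in Pit1dw/dw and 4.14 to 4.55 in Pit1+/+, and 4 of the 6 averaged below the overall median. Albumin (Alb) was among those 4, at 2.89 to 3.28 in Prop1df/df, 2.86 to 3.33 in Pit1dw/dw and 2.46 to 3.35 in Pit1+/+, whereas Ttr, a hepatocyte and choroid plexus gene, averaged 8.99 in Prop1df/df, 9.06 in Pit1dw/dw and 8.58 in Pit1+/+. Prop1df/df pool 4, the highest Prop1df/df pool for Rnase1 (5.43), had the highest value of Ttr, at 12.85. Ttr was 7.85 to 8.13 in the other pools of that group. The hepatocyte level of 5 was also that of pool 4, so Ttr weighs heavily in the list's upper end. In Pit1dw/dw Ttr was 7.02, 10.21, 7.64, 8.63 and 11.81 in pools 1 to 5. Rnase1 was 4.75, 5.6, 4.83, 5.62 and 5.93 in the same pools. Both genes were lowest in pools 1 and 3 and highest in pool 5, and pools 2 and 4 changed places. Across groups the order differed. In Pit1dw/dw pools 1 and 3, Ttr lay below its Pit1+/+ range of 8.03 to 9.53, but Rnase1 lay above its own of 3.49 to 4.03. In Prop1df/df pool 5, the lowest of its group for Rnase1 (3.89), Ttr was 8.05, within the range of pools 1 to 3. The part of Ttr-bearing tissue in Rnase1 was not tested. Endothelial genes, with a mean level of 6.29 to 7.18 in Prop1df/df, 6.62 to 7.12 in Pit1dw/dw and 6.42 to 6.94 in Pit1+/+, had no member past the threshold in any contrast. The bone and cartilage list was 6.5 to 8.32 in Prop1df/df against 5.29 to 7.28 in Pit1dw/dw and 4.46 to 7.07 in Pit1+/+, and 3 of its 7 genes were higher in Prop1df/df than in Pit1+/+ and 2 higher than in Pit1dw/dw. The shares of all genes given above apply to these counts too.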

How the data were processed

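Pituitary RNA pools of newborn mice were hybridised to 15 Affymetrix Mouse Genome expression arrays, each pool to its own array. The deposited values are log2 signals that the authors made with RMA (background correction, quantile normalisation across arrays, median polish), per the submitters' processing notes. No source used here gives the RMA settings. No arrays were identical, arrays give no counts, and their number limits the precision. The titles call the pools biological replicates.

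Of 45101 probe sets, 64 are controls, 34945 name 1 gene in the platform annotation, 932 several and 9160 none. For each of 18193 genes, the brightest probe set on average across the arrays stood for the gene. A model of the 3 group means used every array (limma 3.58.1, R 4.3.3, lmFit and eBayes, two-sided). Benjamini-Hochberg adjustment of the p-values covered all genes, with a threshold of 0.05, and confidence intervals (95%) came from the fit. Differences are log2, with the first group minus the second. The fit was tested on simulated data made from these arrays. It recovered 75% of genes changed by a log2 difference of 1 and 98% of those changed by 2 in Prop1df/df minus Pit1+/+, with 16 false calls among 189 (8.47%), more than the threshold promises.

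The genes and lists were chosen with earlier results of these data known. Named genes are the 6 members, the 3 nearest in pattern to each, the mutated genes (1 of which is not reported here), up to 4 of each family list by adjusted p with the closest family members, the genes next to the members in the ranking of rises, and Prph, Ibsp and Xist. The other marker genes named, among them Gh, Tshb, Ghrhr, Lhb, Ttr, Alb and Eif2s3y, were chosen after their values were seen. Nearness is the root mean square difference of centred log2 values over 15 arrays. Promoter sequences are from RefSeq. Alternatives covered scaling, probe set choice, the prior, array weights, blocks, covariates and left-out pools.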

Additional observations from a re-analysis of the deposited data

Results flagged for a closer look

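Within each group of 5 pools, the highest or lowest value was set against its nearest neighbour by Dixon's test. It flagged 9 of 84 groups searched (10.7%), where chance flags about 1 in 20. Among the 6 genes, Fads2b in Prop1df/df pool 3 was 3.98, with the next pool at 4.66. Ghrhr, the receptor for growth hormone releasing hormone, was 5.13 in Pit1dw/dw pool 2, with the next at 4.69. Prph was 10.59 in Pit1+/+ pool 3, with the next at 3.74, and the mean of the sensory ganglion list was 9.4 in the same pool, with the next at 5.06. Xist was 3.69 in Pit1+/+ pool 4, with the next at 10.19. The Y-linked gene Eif2s3y was 5.85 in Prop1df/df pool 1, with the next at 9.59, and 3.05 in Pit1+/+ pool 1, with the next at 8.45. The bone and cartilage list was 7.28 in Pit1dw/dw pool 5, with the next at 5.86, and the hepatocyte list was 5 in Prop1df/df pool 4, with the next at 4.3. Not every gene named here was searched. Ttr, a gene of the hepatocyte list, was 12.85 in that pool, with the next at 8.13. Nr5a1 was 4.63 in Pit1+/+ pool 5, with the next at 5.44.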

How the results depend on the processing

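The 12 tested differences of the 6 genes were recomputed under up to 29 alternatives each, giving 346 values. Of these, 322 kept the call, 23 gained it, 1 lost it and 0 changed sign. Several alternatives could not move an estimate. Among them are the other prior, the replicate block and a pool left out of the group not compared. For genes with 1 probe set, most choices of probe set could not either. The count of members past the threshold against Pit1+/+ (1) was 2 after median centring, a second quantile normalisation, the ganglion and bone covariates, or without the 3 Prop1df/df pools high in Gh. It was 3 with dim probe sets left out, array weights or the replicate block, and 1 to 2 with 1 pool left out. Over all genes, 1920 passed in Prop1df/df minus Pit1+/+, against 4297 with array weights, 890 without the pools high in Gh, 1086 with the covariates, and 1401 to 3258 (without Pit1+/+ pool 5) with 1 pool left out. In Prop1df/df minus Pit1dw/dw, 1139 passed, against 2390, 503 and 649 under the same settings, 746 without the pools with Prph above 7, and 826 to 1578 with 1 pool left out. In Pit1dw/dw minus Pit1+/+, 140 passed, against 571 with array weights, 51 without the Prph pools and 83 (without Pit1dw/dw pool 2) to 161 with 1 pool left out. The cause was not tested, although left-out pools also reduce the sample.

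Same-numbered pools deviated with correlations of -0.309 to 0.674, so the numbers were not taken to pair them. With the replicate block 2138, 1313 and 137 genes passed in the 3 contrasts, and Apela (-0.78, adjusted p = 0.0271) and Frmpd2 (0.6, adjusted p = 0.0464) passed against Pit1+/+. The mean of both Apela probe sets gave 0.78 in Pit1dw/dw minus Pit1+/+, -1.14 in Prop1df/df minus Pit1dw/dw and -0.36 (adjusted p = 0.155) in Prop1df/df minus Pit1+/+. The filter on probe sets shared by transcripts removed Fetub. The setting without the pools high in Gh was chosen after seeing the data. Signal near the overall median of 4.37 limits Fetub and Rnase1, whose Pit1+/+ means lay below it. Fads2b was near it too, with a Pit1+/+ mean of 4.42 and 3.98 in Prop1df/df pool 3. So was Apela in Prop1df/df pools 4 and 5, at 4.32 and 4.1.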
